A study of Mus musculus with 18 samples.

Results

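Eomes and Tbr1 are the 2 T-box transcription factor genes described here, chosen by name for their place in the lineage of cortical glutamatergic neurons, out of 38355 genes listed in the data. Both were among the 16236 genes that passed a filter on low counts. RNA came from cortical tissue dissected from C57BL/6 mice at the embryonic stage E12.5. There were 5 libraries of embryos lacking both Dmrt3 and Dmrt5 (double KO), 4 lacking Dmrt5 (Dmrt5 KO), 5 lacking Dmrt3 (Dmrt3 KO) and 4 wild-type (WT) libraries. Dmrt3 and Dmrt5 are doublesex-related transcription factors of the developing cortex, and the transcript of Dmrt5 is listed under its current symbol, Dmrta2. How the KO alleles were made is not stated in the labels, nor is the embryo or litter behind each library. A p-value therefore describes the spread among these libraries, which may in part be technical.

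T-box proteins bind DNA through a conserved domain, the T-box. In the embryonic cortex, apical progenitors that express Pax6 give rise to intermediate progenitors, which switch on Eomes (also called Tbr2), divide and produce neurons. Tbr1 is switched on afterwards, in newly born glutamatergic neurons, and is needed for the identity of early-born neurons of the preplate and deep layers; Cajal-Retzius neurons, which populate the surface of the cortex, express it as well. The sequence Pax6, Eomes, Tbr1 is therefore used to follow the steps of cortical neuron production.

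Eomes (ENSMUSG00000032446) lies on chromosome 9 from 118478212 to 118486132, and Tbr1 (ENSMUSG00000035033) on chromosome 2 from 61802930 to 61814114, both on the + strand of the mouse build mm10 (GRCm38, GENCODE M21 annotation). Each has 6 exons in its main coding transcript, Eomes-202 and Tbr1-201. Exons 2 to 5 have the same lengths in the 2 genes: 155, 122, 159 and 62 bases. Exon 3 is shown because it lies fully within the coding sequence and lets the related reading frames be compared base by base. Capitals mark the 87 of 122 positions at which the 2 genes are identical. The Eomes exon is chr9:118481265-118481386 and the Tbr1 exon chr2:61806632-61806753, both read on the + strand.
Eomes exon 3: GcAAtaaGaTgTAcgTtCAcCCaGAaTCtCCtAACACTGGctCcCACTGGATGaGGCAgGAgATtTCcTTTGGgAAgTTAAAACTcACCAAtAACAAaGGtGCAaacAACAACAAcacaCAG
Tbr1 exon 3: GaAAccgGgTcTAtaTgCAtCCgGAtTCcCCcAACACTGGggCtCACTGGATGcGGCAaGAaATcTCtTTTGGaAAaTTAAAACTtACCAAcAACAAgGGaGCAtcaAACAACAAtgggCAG

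Over exons 2 to 5 together, 73.7% of 498 bases were identical. The longest stretch shared by any of the 3 annotated Eomes transcripts with any of the 4 of Tbr1 was 14 bases. Longer reads from the 2 genes can therefore be told apart by sequence. The 3′ end of Eomes overlaps the gene Gm33460 on the opposite strand, which is not analysed here. The library kit does not mark strand, so reads of the pair in the overlap cannot be told apart. No annotated gene overlaps Tbr1.

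The 250 bases before each gene's RefSeq start (GRCm38.p6, + strand) are shown because the 2 genes were lower together in the double KO. The windows are chr9:118477939-118478188 for Eomes and chr2:61804203-61804452 for Tbr1. The RefSeq start of Eomes lies 23 bases before that of Eomes-202 in GENCODE, and that of Tbr1 is the start of Tbr1-201. The GENCODE gene of Tbr1 begins earlier, with the transcript Tbr1-204, and all 250 bases of the Tbr1 window lie in an exon of that transcript. Capitals mark matches, on either strand, to the E-box CANNTG, bound by proneural factors such as Neurog2, to TAATTA, a core site of homeodomain proteins, and to CCAAT.
Eomes promoter: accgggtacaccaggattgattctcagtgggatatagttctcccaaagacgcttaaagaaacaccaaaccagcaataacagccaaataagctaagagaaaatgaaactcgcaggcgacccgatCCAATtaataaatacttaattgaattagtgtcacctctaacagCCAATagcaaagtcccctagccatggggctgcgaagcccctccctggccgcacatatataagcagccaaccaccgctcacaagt
Tbr1 promoter: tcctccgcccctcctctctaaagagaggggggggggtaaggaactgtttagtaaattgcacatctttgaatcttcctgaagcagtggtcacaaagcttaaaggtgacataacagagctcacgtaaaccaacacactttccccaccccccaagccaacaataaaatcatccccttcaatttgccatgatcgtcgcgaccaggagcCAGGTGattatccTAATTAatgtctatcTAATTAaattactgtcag

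The Eomes window held 2 matches to CCAAT and none to the other motifs. The Tbr1 window held 1 match to CANNTG and 2 to TAATTA, and none to CCAAT. Matches to different motifs did not overlap. Among 32851 promoter windows of the same length, 66.2% held CANNTG, 4.84% TAATTA and 33.8% CCAAT. These are descriptions of the letters in the window.

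The libraries held 19602718 to 33072896 counts each. The transcripts of the targeted genes fitted the labels in all KO libraries. Dmrt3 was at 0 to 0.383 CPM (counts scaled to library size) in the double KO and 0.232 to 0.398 CPM in Dmrt3 KO, against 52.0 to 61.8 CPM in WT. Dmrta2 was at 1.66 to 4.90 CPM in the double KO and 4.31 to 25.1 CPM in Dmrt5 KO, with the highest value in replicate 1, against 159 to 220.3 CPM in WT. The factor left in place was at 30.3 to 48.5 CPM for Dmrt3 in Dmrt5 KO, below the WT range, and at 155 to 295 CPM for Dmrta2 in Dmrt3 KO. The cortical genes Emx1 and Pax6 were at 153 ± 32.5 and 176 ± 20.8 CPM in WT, beside summed levels of 746 to 2397 CPM for 8 mesenchyme markers and 2717 to 14777 CPM for 6 erythroid markers. Some libraries stand apart in ways the genotypes do not give. Double KO replicate 5 had the lowest mesenchyme score of all libraries, a mean log2 CPM of 0.68 over 8 mesenchyme genes where the other 17 libraries had 3.43 to 7.38. Double KO replicate 5 and WT replicate 4 also had the steepest slopes of log2 CPM on log2 gene length, 0.43 and 0.37, where the other 16 had -0.21 to 0.17.

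Eomes was about 4-fold lower in the double KO than in WT, and no loss of a single factor changed it beyond the threshold. In the double KO, Eomes stood at 46.6, 47.1, 45.1, 42.4 and 62.3 CPM. The Dmrt5 KO libraries held 161, 137, 178 and 179.5 CPM of Eomes, and the Dmrt3 KO libraries 209, 203, 227, 274 and 173 CPM. In WT, Eomes was at 255, 142, 188 and 213 CPM. The 5 double KO libraries lay close together, well below every other library, while the other 3 genotypes overlapped one another. All 5 double KO libraries were also below all WT libraries in 3.4% of the tested genes.

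The mean Eomes level was 48.7 ± 7.84 CPM in the double KO (SD, n = 5), 164 ± 19.6 CPM in Dmrt5 KO (n = 4), 217 ± 37.0 CPM in Dmrt3 KO (n = 5) and 199.7 ± 47.3 CPM in WT (n = 4). The double KO was 4.10-fold lower than WT, a log2 fold change of -2.04 ± 0.17 (SE, edgeR quasi-likelihood test, adjusted p = 6.63e-07), in a comparison where 6.23% of tested genes were called in either direction and 3.81% were called lower. Here and below, called means an adjusted p under 0.05, with adjustment over all 16236 genes. In order of the mean, Dmrt3 KO, WT and Dmrt5 KO were neighbours that did not differ beyond their spread. The log2 fold change of Eomes was 0.12 ± 0.16 in Dmrt3 KO against WT (adjusted p = 0.746, 0.0123% of genes called) and -0.28 ± 0.17 in Dmrt5 KO against WT (adjusted p = 0.576, 1.03% called). Between Dmrt5 KO and Dmrt3 KO it was -0.41 ± 0.17 (adjusted p = 0.809, 0.228% called). In whole tissue, fewer Eomes-expressing cells and less Eomes RNA per cell cannot be told apart, and the same holds for Tbr1.

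Eomes was lower in the double KO than in either single KO as well. Against Dmrt5 KO it was 3.37-fold lower (log2 -1.75 ± 0.17 SE, adjusted p = 1.53e-05), where 0.333% of genes were called, 0.32% were called lower and 1.37% had every double KO library below the others. Against Dmrt3 KO it was 4.46-fold lower (log2 -2.16 ± 0.16 SE, adjusted p = 3.08e-07), where 3.7% of genes were called, 1.96% were called lower and 2.51% had every double KO library below the others. The interaction asks whether the double KO departs from the sum of the single KO effects on the log2 scale. For Eomes it was -1.87 ± 0.24 (SE, adjusted p = 0.00107), so the double KO lay below that sum. Called genes made up 0.142% of the tested genes in the interaction, and Eomes ranked 5 by p-value among them.

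**Figure D1:**
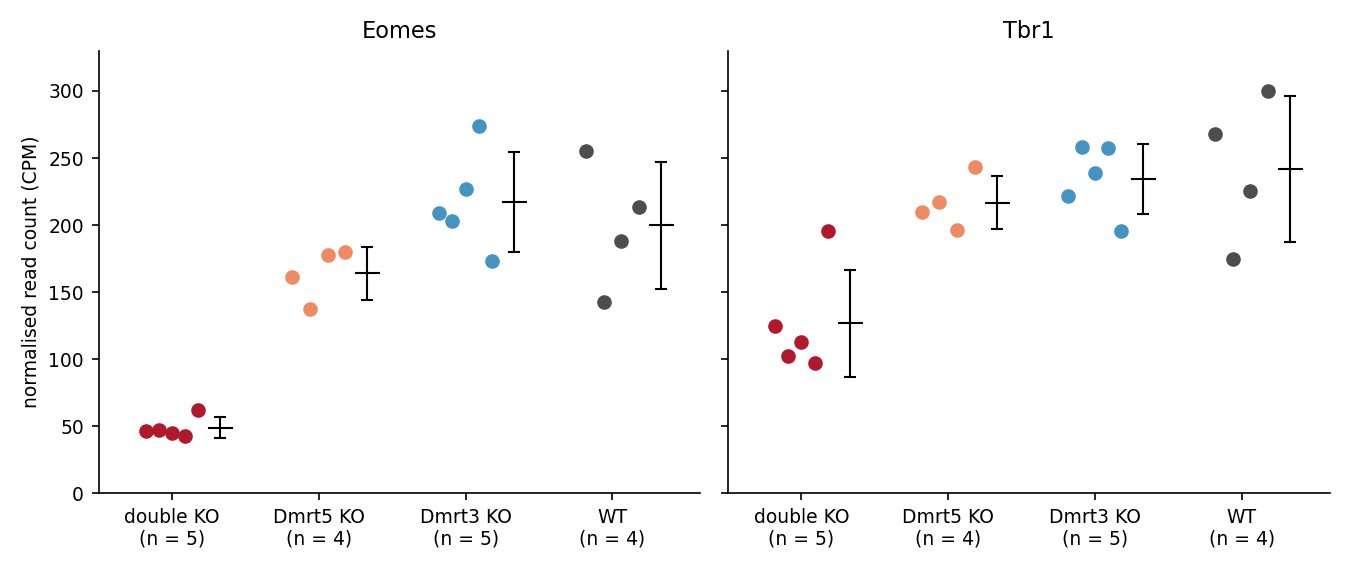
Normalised read count (CPM) of Eomes (left panel) and Tbr1 (right panel) in each library, by genotype. Points are libraries, and the bar beside them is the mean ± SD. Eomes sits at 42.4 to 62.3 CPM in the double KO and at 137 CPM or more in every other library, while the highest double KO value of Tbr1, 196 CPM, reaches into the WT range.

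Tbr1 was also lower in the double KO than in WT, by a smaller factor and with more spread. Its double KO libraries were at 125, 102, 113, 97.4 and 196 CPM. In Dmrt5 KO, Tbr1 was at 210.0, 217, 196 and 244 CPM, and in Dmrt3 KO at 222, 258, 239, 257 and 196 CPM. The WT libraries held 268, 175, 226 and 300.3 CPM. Double KO replicate 5 lay far above the other 4 double KO libraries and above WT replicate 2, so the double KO and WT overlapped. It also lay just below the lowest libraries of both single KO genotypes.

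Tbr1 averaged 127 ± 39.98 CPM in the double KO (SD, n = 5), 217 ± 19.8 CPM in Dmrt5 KO (n = 4), 234 ± 26.3 CPM in Dmrt3 KO (n = 5) and 242 ± 54.4 CPM in WT (n = 4). The double KO was 1.91-fold lower than WT (log2 -0.94 ± 0.19 SE, edgeR adjusted p = 0.00478) and 1.85-fold lower than Dmrt3 KO (log2 -0.89 ± 0.18 SE, adjusted p = 0.0067). When only the double KO and WT libraries entered the fit, the change against WT was -0.93 and was no longer called (adjusted p = 0.0719). Against Dmrt5 KO the log2 fold change was -0.78 ± 0.19, which was not called (adjusted p = 0.121). Without double KO replicate 5 that value was -0.99 and was called (adjusted p = 0.00409). Tbr1 was not called in Dmrt3 KO against WT (-0.05 ± 0.19, adjusted p = 0.916), in Dmrt5 KO against WT (-0.16 ± 0.20, adjusted p = 0.812) or in Dmrt5 KO against Dmrt3 KO (-0.11 ± 0.19, adjusted p = 1). The interaction was -0.73 ± 0.27 and was not called (adjusted p = 0.529); without double KO replicate 5 and WT replicate 4 it was -1.05 and was called (adjusted p = 0.0477).

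Per kilobase of exon, the 2 genes were at similar levels outside the double KO. Eomes averaged 11.7 CPM per kb in the double KO, 39.5 in Dmrt5 KO, 52.3 in Dmrt3 KO and 48.1 in WT. Tbr1 averaged 23.1 CPM per kb in the double KO, 39.5 in Dmrt5 KO, 42.7 in Dmrt3 KO and 44.1 in WT. The comparisons with the double KO use the same 5 libraries, and those with WT the same 4, so the values of different comparisons are not independent of each other.

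**Figure D2:**
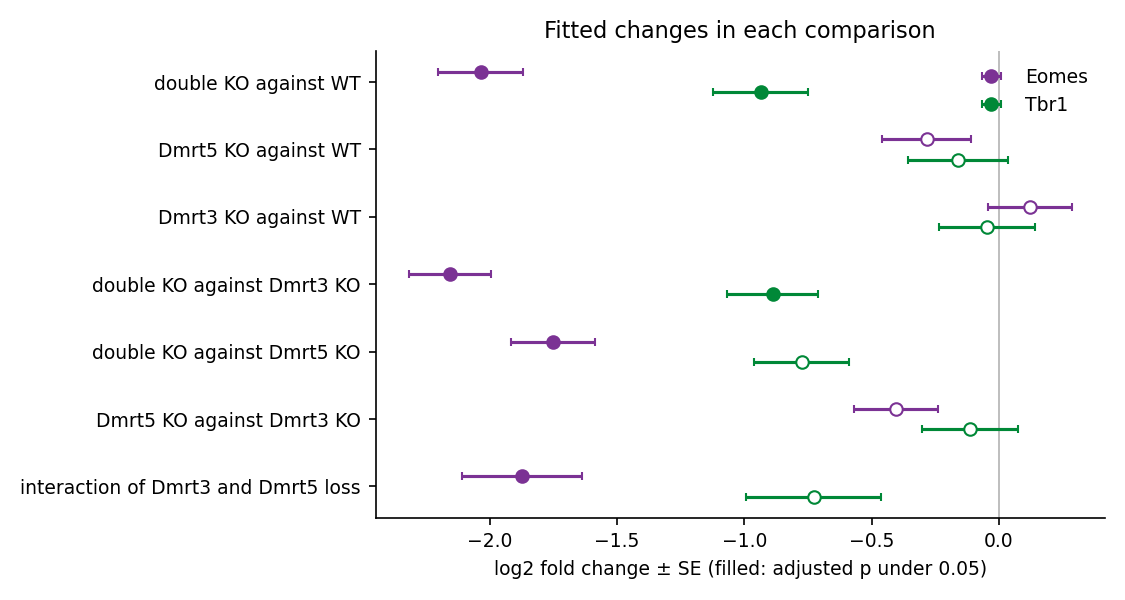
Fitted log2 fold change ± SE of Eomes and Tbr1 in the 6 comparisons and the interaction, from the edgeR model. Filled points have an adjusted p under 0.05. Eomes is called in the 3 comparisons with the double KO and in the interaction, and Tbr1 is called in the double KO against WT and against Dmrt3 KO.

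A ratio within a library does not depend on how libraries are scaled, so Tbr1 was also set against Eomes within each library. The ratio of Tbr1 CPM to Eomes CPM was 2.67, 2.17, 2.51, 2.295 and 3.14 in the double KO libraries. It was 1.30, 1.58, 1.10 and 1.36 in Dmrt5 KO, 1.06, 1.27, 1.05, 0.941 and 1.13 in Dmrt3 KO, and 1.05, 1.23, 1.20 and 1.41 in WT. Every double KO ratio was above every ratio in the other genotypes, and the other 3 genotypes overlapped.

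On the log2 scale, Tbr1 minus Eomes averaged 1.34 ± 0.21 in the double KO and 0.28 ± 0.17 in WT (SD, n = 5 and 4), a difference of 1.06 (exact two-sided permutation test, p = 0.00794, the smallest these libraries can give, adjusted p = 0.019 over 12 tests of this kind). It was 1.22 higher in the double KO than in Dmrt3 KO (0.12 ± 0.16, n = 5) and 0.94 higher than in Dmrt5 KO (0.41 ± 0.21, n = 4), both with an adjusted exact permutation p of 0.019. The differences between single KO and WT were 0.12 for Dmrt5 KO and -0.16 for Dmrt3 KO, with adjusted exact permutation p of 0.371 and 0.199. Between Dmrt5 KO and Dmrt3 KO the difference was 0.29 (adjusted exact permutation p = 0.0741).

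Tbr1 was then set against the mean log2 CPM of 13 genes expressed by neurons in general, such as Tubb3, Dcx and Map2. In the double KO, Tbr1 was below this mean in every library, by log2 values of -1.14, -1.11, -0.84, -0.33 and -0.42. The Dmrt5 KO libraries lay near it, at -0.02, -0.0016, 0.24 and 0.21. Tbr1 was above the pan-neuronal mean in every library of Dmrt3 KO (0.38, 0.21, 0.43, 0.64 and 0.69) and of WT (0.65, 0.65, 0.58 and 1.002). The double KO lay below all other libraries, Dmrt5 KO lay below all WT libraries, and Dmrt5 KO overlapped Dmrt3 KO. By CPM of single genes, Dmrt5 KO and WT libraries did not overlap in 8.73% of tested genes. The pan-neuronal genes had a median log2 fold change against WT of 0.53 in Dmrt5 KO, where Tbr1 changed by -0.16. In the double KO that median was 0.62, where Tbr1 changed by -0.94. A lower value on this measure can therefore come from a higher pan-neuronal mean as well as from less Tbr1.

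The difference from WT was -1.49 in the double KO (adjusted exact permutation p = 0.019) and -0.61 in Dmrt5 KO (adjusted exact permutation p = 0.0429, with the unadjusted 0.0286 the smallest that 4 against 4 can give). Dmrt3 KO differed from WT by -0.25 (adjusted exact permutation p = 0.124). The double KO was lower than Dmrt3 KO by a log2 difference of -1.24 and lower than Dmrt5 KO by -0.87 (adjusted exact permutation p = 0.019 and 0.0317). Dmrt5 KO differed from Dmrt3 KO by -0.36 (adjusted exact permutation p = 0.0408). The 3 calls that involve Dmrt5 KO were each lost when 1 of several libraries was left out. Without Dmrt5 KO replicate 1, 2 or 5, the adjusted exact permutation p was 0.0571 in Dmrt5 KO against WT, 0.0612 in the double KO against Dmrt5 KO and 0.107 in Dmrt5 KO against Dmrt3 KO. In Dmrt5 KO against WT and the double KO against Dmrt5 KO, leaving out a library cannot make the genotypes overlap. Why the calls were lost there was not tested. The comparison of Dmrt5 KO with Dmrt3 KO also lost its call without Dmrt3 KO replicate 1, 3, 4 or 5 (adjusted exact permutation p from 0.0686 to 0.0857). The pan-neuronal genes are also expressed by GABAergic neurons, whose markers moved with genotype. The summed level of 12 subpallial GABAergic lineage markers had a median of 3239 CPM in the double KO (range 1861 to 3624), 2145 in Dmrt5 KO (1783 to 2237), 1161 in Dmrt3 KO (941 to 1590) and 1008 in WT (934 to 1332). The part of these cells in the result was not tested.

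**Figure D3:**
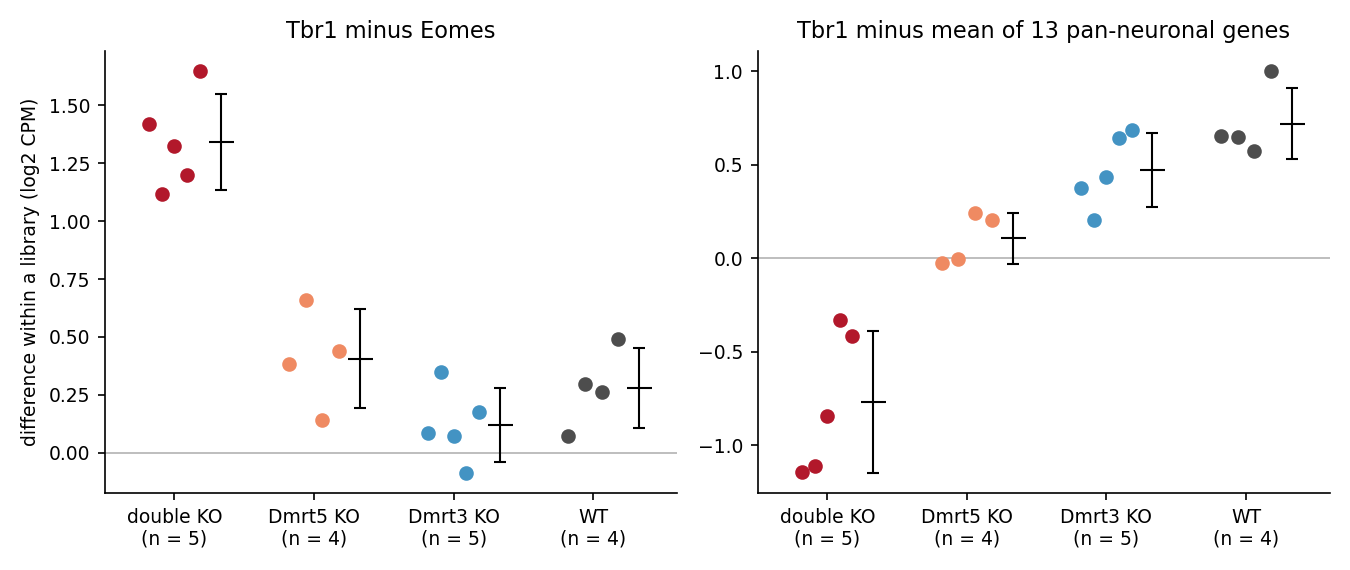
Log2 CPM of Tbr1 minus that of Eomes (left panel) and minus the mean of 13 pan-neuronal genes (right panel), for each library by genotype, with the mean ± SD beside the points. The double KO averages 1.34 on the left, above all other libraries, and -0.77 on the right, below all other libraries.

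Libraries of the same genotype varied together in the 2 genes. After the genotype mean was removed, the log2 deviations of Eomes and Tbr1 over the 18 libraries had a Pearson r of 0.763 and a Spearman rho of 0.715 (p = 0.00224 and 0.00418, permutation test within genotype, 100000 resamples). Without the 2 libraries farthest from the median Eomes deviation, WT replicates 1 and 2, r was 0.719 and rho 0.624 (permutation p = 0.00511 and 0.0182, n = 16). Without double KO replicate 5 and WT replicate 4, r was 0.737 and rho 0.621 (permutation p = 0.0193 and 0.0313, n = 16). The libraries also differed within each genotype in mesenchyme and in the slope of log2 CPM on log2 gene length. The part of dissection, or of what lies behind that slope, in this relation was not tested.

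**Figure D4:**
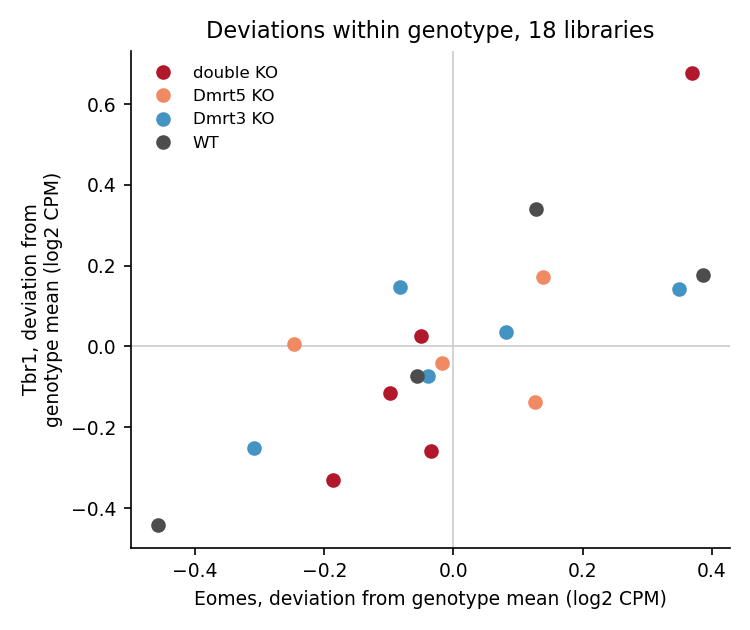
Deviation of Tbr1 (vertical axis) against deviation of Eomes (horizontal axis) from the genotype mean, in log2 CPM, for 18 libraries coloured by genotype. Libraries high in Eomes tend to be high in Tbr1 (r = 0.763), and double KO replicate 5 is the highest point for Tbr1.

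Among the other T-box genes, 15 were listed and 11 passed the filter. Tbx4, Tbx10, Tbx19 and Tbx20 did not pass it. Per kilobase of exon, the highest was Mga, a large T-box protein that also pairs with Max, at a level of 4.30 CPM per kb in the double KO and 4.52 in WT. Tbx18, Tbx2 and Tbx15 stood at 3.24, 3.06 and 2.50 CPM per kb in WT, and T, Tbx1, Tbx3, Tbx5, Tbx6, Tbx21 and Tbx22 at 1.03 CPM per kb or less. In every genotype the mean level of Eomes and of Tbr1 per kb was above that of each other T-box gene. With edgeR, 0 of the 11 were called in any of the 7 comparisons. At an unadjusted p under 0.05 there were 2 in the double KO against WT, beside 2869 of 16236 tested genes. Each other comparison had 0 or 1, beside 753 to 2819 of 16236. DESeq2 also called 0 in each of the 7 comparisons. Without double KO replicate 4, 3 of 10 were called lower in the double KO against WT, beside 1272 of 16244 tested genes. The median log2 fold change of the other 11 in the double KO against WT was -0.08, beside 0.01 over all tested genes.

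The genes reported to act upstream of Eomes did not move one way in the double KO. Of 6, 2 were called lower and 2 higher against WT, beside 3.81% and 2.42% of all tested genes, with a median log2 fold change of -0.10. With the mesenchyme score as a covariate 2 were lower and 1 higher (median -0.88), beside 284 and 126 of 16236 tested genes. With the pan-neuronal score there were also 2 and 1 (median -0.65), beside 470 and 220 of 16236. Without WT replicate 2 the counts were 2 lower and 1 higher too (median -0.40), beside 544 and 300 of 16469. Neurog2, the proneural factor of cortical progenitors, was at 58.9 ± 9.86 CPM in the double KO, 204 ± 31.0 CPM in Dmrt5 KO, 284 ± 33.8 CPM in Dmrt3 KO and 238 ± 51.3 CPM in WT, a log2 fold change of -2.01 in the double KO against WT (adjusted p = 5.18e-07). Tfap2c, an AP-2 factor of basal progenitors, fell by 1.17 (adjusted p = 0.000198). Pax6, which marks apical progenitors and activates Eomes, rose instead, to 319 ± 78.7 CPM in the double KO against 176 ± 20.8 CPM in WT (log2 0.85, adjusted p = 0.00208). Insm1, a zinc-finger factor that promotes the formation of basal progenitors, rose by 0.51 (adjusted p = 0.015). In Dmrt5 KO against WT, edgeR called 0 of the 6, with 3 at an unadjusted p under 0.05, beside 1835 of 16236 tested genes. There DESeq2 called 2 higher, beside 198 of 18524. In Dmrt3 KO against WT, both tools called 0, with 2 at an unadjusted p under 0.05, beside 1163 of 16236.

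Of 15 other intermediate progenitor markers, 6 fell and 2 rose in the double KO against WT, beside 3.81% and 2.42% of all tested genes. The median of the 15 was -0.03. The largest changes were in basic helix-loop-helix genes of the neurogenic cascade. Nhlh1 was at 12.8 ± 2.46 CPM in the double KO and 70.0 ± 11.8 CPM in WT (log2 -2.45, adjusted p = 2.84e-08), Neurod1 at 7.67 ± 1.46 and 35.3 ± 5.99 CPM (log2 -2.20, adjusted p = 1.76e-06), and Neurog1 at 12.4 ± 4.40 and 33.7 ± 7.28 CPM (log2 -1.44, adjusted p = 0.000591). Neurog2 is also on this list. The other called genes, named after their values were seen, were Sstr2 and Mfap4, which were lower, and Insm1 and Dll3, a Notch ligand, which were higher. Without double KO replicate 5 and WT replicate 4, 5 fell and 1 rose, beside 505 and 274 of 16342 tested genes. With the mesenchyme score of each library as a covariate 5 fell and 0 rose (median -0.24), beside 284 and 126 of 16236. With the pan-neuronal score 6 fell and 0 rose, beside 470 and 220 of 16236. Without WT replicate 2 there were also 6 and 0, beside 544 and 300 of 16469. Without WT replicate 1 or 4 or double KO replicate 1, 2 or 3 there were 5 and 1. Over all tested genes, 465 to 603 were called lower and 270 to 313 higher in those fits. With only the 2 genotypes in the fit 4 fell and 0 rose, beside 237 and 131 of 15620. In the interaction, where 0.142% of all tested genes were called lower, 4 of the 15 were, namely Neurog1, Neurog2, Neurod1 and Nhlh1. Neurod4, another gene of this cascade, was called higher in Dmrt5 KO against WT (log2 1.30, adjusted p = 0.0226). It was the only marker of the list that edgeR called there, beside 55 of 16236 tested genes called higher. DESeq2 called 4 of the list higher, beside 198 of 18524.

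Downstream in the lineage, 6 of 14 markers of postmitotic pallial glutamatergic neurons fell and 1 rose in the double KO against WT, with a median of -0.71. The shares over all tested genes were 3.81% lower and 2.42% higher. Neurod6 and Neurod2, which drive the differentiation of cortical pyramidal neurons, fell, with log2 fold changes of -5.66 (adjusted p = 1.55e-05) and -4.45 (adjusted p = 6.26e-06). Neurod2 was at 5.24 ± 2.90 CPM in the double KO and 114 ± 65.7 CPM in WT. Slc17a7, a vesicular glutamate transporter, fell by 3.45 (adjusted p = 8.65e-08), and Fezf2, a regulator of deep-layer neurons, fell by 2.01 (adjusted p = 3.16e-08). Each of these 4 changes was larger in size than that of Tbr1, -0.94, but the 4 were named for the lowest adjusted p of the list in this comparison. The list median, -0.71, was smaller in size than the change of Tbr1. The differences between genes were not tested. The gene that rose was Foxp2, named after its value was seen; without double KO replicate 5 and WT replicate 4 the counts were 6 and 0, and with the mesenchyme or pan-neuronal score as a covariate 6 and 8 fell and 0 rose. None rose either without WT replicate 1, 2 or 3 or double KO replicate 1, 3 or 5. In Dmrt5 KO against WT, Fezf2 was the only one of the 14 called, at -0.92 (adjusted p = 0.00364).

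Of 8 genes reported as targets or partners of Tbr1, Fezf2 was the only one called in the double KO against WT, and the median was 0.10. Over all tested genes, 3.81% were called lower. The list pools targets and partners whatever the reported direction of their relation to Tbr1, so its median and counts do not measure Tbr1 activity. With the pan-neuronal score as a covariate 3 were called lower, beside 470 of 16236 tested genes, and the median was -0.57. With the mesenchyme score 1 was called lower, beside 284 of 16236, and the median was -0.45. Reln, which encodes a protein secreted by Cajal-Retzius neurons and lies downstream of Tbr1, was at 87.7 ± 32.0 CPM in the double KO and 106 ± 37.6 CPM in WT (log2 -0.27, adjusted p = 0.7). The partner Cask had a log2 fold change of 0.19 (adjusted p = 0.676) and Ntng1 of 0.59 (adjusted p = 0.352). Among 10 Cajal-Retzius markers, 2 fell and 1 rose, beside 3.81% and 2.42% of all tested genes. Without double KO replicate 5 and WT replicate 4, 3 fell and 1 rose, beside 505 and 274 of 16342 tested genes. Without double KO replicate 5 alone 4 fell, beside 621 of 16175. With the mesenchyme score as a covariate 2 fell and 0 rose, beside 284 and 126 of 16236. Trp73 was at 10.6 ± 2.25 CPM in the double KO and 40.8 ± 11.4 CPM in WT (log2 -1.95, adjusted p = 4.92e-06), Ebf2 fell by 2.13 (adjusted p = 0.000221), and Lhx5 rose by 1.07 (adjusted p = 0.00664).

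Markers of other cell types in the dissection were read beside these values. All 12 subpallial GABAergic markers rose in the double KO against WT, beside 2.42% of all tested genes called higher. Their median was 1.62, and Dlx2 was among them (log2 1.61, adjusted p = 2.59e-05). Of 8 cortical hem markers, 5 fell, with a median of -2.82, beside 3.81% of all tested genes called lower. Of 12 apical progenitor markers, Pax6 rose while Emx1, a pallial identity factor, and Id4 fell, with log2 fold changes of -4.17 (adjusted p = 3.16e-08) and -0.87 (adjusted p = 1.77e-05), and the median was 0.11. Of 13 pan-neuronal genes, the neurofilament genes Nefl and Nefm rose and the median was 0.62. With the mesenchyme score as a covariate 0 pan-neuronal genes were called higher and 1 lower (median 0.22), beside 126 and 284 of 16236 tested genes. Without double KO replicate 4 there were 8 higher, beside 734 of 16244 tested genes. The summed mesenchyme level ran from 41.9 to 2053 CPM in the double KO and from 746 to 2397 CPM in WT, and with the mesenchyme score as a covariate Eomes and Tbr1 were called in the same comparisons as before, with Tbr1 called in the double KO against Dmrt5 KO besides. With edgeR, 0 mesenchyme, endothelium, microglia and erythroid markers were called in the double KO against WT. DESeq2 called 1 of 6 endothelium markers lower and 0 of the mesenchyme, microglia and erythroid markers, beside 901 of 20035 tested genes called lower. At an unadjusted p under 0.05 edgeR had 1 of 8 mesenchyme, 3 of 6 endothelium, 0 of 6 microglia and 1 of 6 erythroid markers. Over all genes 2869 of 16236 were under it. Double KO replicate 4 held the 2053 CPM of mesenchyme markers, where the other double KO libraries had 345 CPM or less. Without it 7 of 8 mesenchyme and 4 of 6 endothelium markers were called lower, beside 1272 of 16244 tested genes. In the same fit Eomes and Tbr1 differed from WT by -1.99 and -0.85 (edgeR, adjusted p = 2.85e-06 and 0.00807). Of 8 diencephalon markers Gbx2 rose (log2 1.62, adjusted p = 0.0321), and 0 were called without double KO replicate 5 and WT replicate 4, with the mesenchyme or pan-neuronal score as a covariate, or without any 1 of WT replicates 1, 2 and 4 and double KO replicates 1, 2 and 3. Without WT replicate 4 and double KO replicate 5 together, the apical progenitor, pan-neuronal, GABAergic and cortical hem lists gave the same numbers of called genes in each direction. The part of these other tissues in the levels of Eomes and Tbr1 was not tested further.

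**Figure D5:**
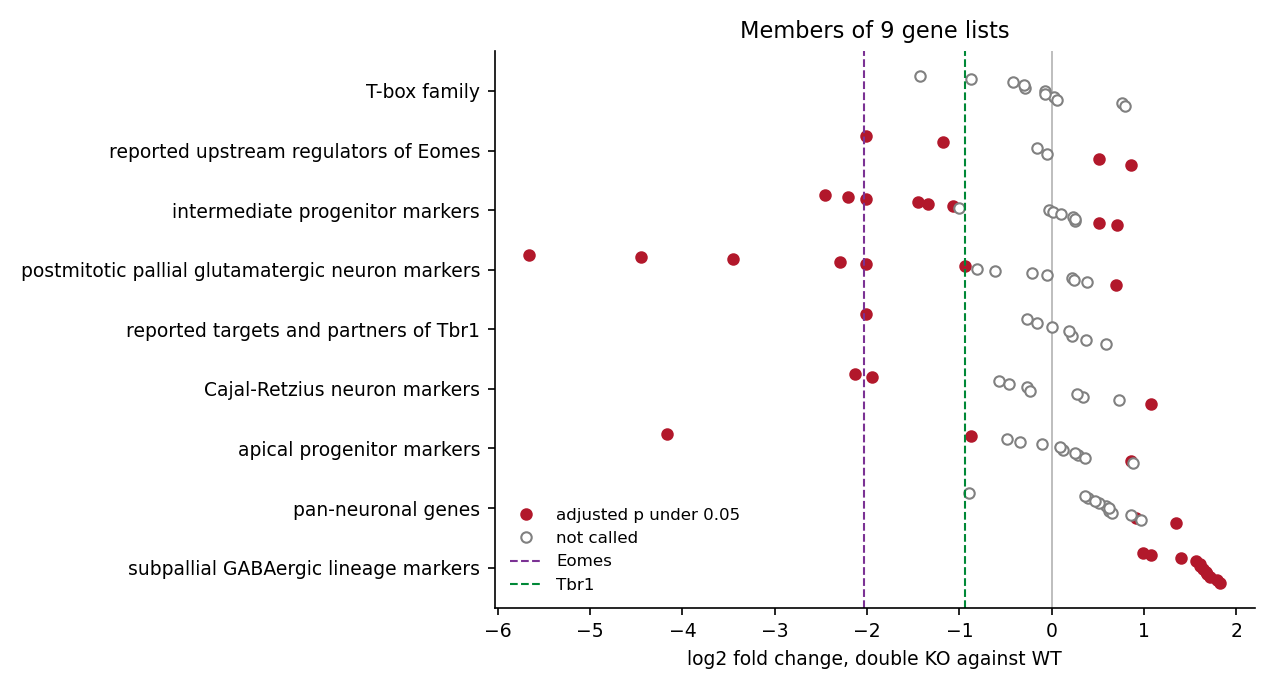
Log2 fold change in the double KO against WT of each tested member of 9 gene lists. Filled points have an adjusted p under 0.05, and the dashed lines mark Eomes (-2.04) and Tbr1 (-0.94). The 11 other T-box genes have no called member, while all 12 GABAergic lineage markers lie to the right of 0 and are called. Of all tested genes, 2.42% were called higher.

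The genes most like Eomes over the 18 libraries were sought among 10507 genes whose mean log2 CPM was 3 or more, by the root mean square (RMS) difference of log2 profiles with the mean removed. The closest 5 were Neurog2 (RMS 0.11), Neurod1 (0.20), Nhlh1 (0.23), Fezf2 (0.39) and Fzd9, a Frizzled receptor (0.40). Neurog2 followed Eomes with a Pearson r of 0.993 across the 18 libraries, as a description of points that share the 4 genotypes. Tbr1 ranked 23 among the genes most like Eomes. For Tbr1 the closest 5 were Slc17a6, a vesicular glutamate transporter (0.17), Cacna2d1, a calcium channel subunit (0.19), Plcxd2 (0.21), Lhx9, a LIM-homeodomain factor (0.23) and Ryr1, a calcium release channel (0.24). Eomes ranked 3845 for Tbr1 by this measure, which weighs the size of a change. By Pearson r, which does not weigh size, Eomes ranked 5 for Tbr1 (r = 0.918).

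The RMS difference weighs the size of a change. The 2 sets of nearest genes therefore had to differ in how far they fell in the double KO. All 5 nearest to Eomes were called lower against WT, beside 3.81% of all tested genes. Their log2 fold changes were -2.01 (Neurog2), -2.20 (Neurod1), -2.45 (Nhlh1), -2.01 (Fezf2) and -2.04 (Fzd9). Of the 5 nearest to Tbr1, Cacna2d1 (-1.10, adjusted p = 0.0119), Plcxd2 (-0.90, adjusted p = 0.0378) and Ryr1 (-1.25, adjusted p = 0.00346) were called, and Slc17a6 (-0.61, adjusted p = 0.219) and Lhx9 (-0.83, adjusted p = 0.11) were not. These genes were picked for their likeness over the same libraries, so neither the directions nor the sizes of their changes are further evidence.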

How the data were processed

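Raw read counts per Ensembl gene were deposited by the authors, 1 file for each of 18 libraries, without normalisation. The RNeasy mini kit and the TruSeq RNA Sample Prep Kit v2 were used, per the labels' protocols. Per the submitters' processing notes, the tools were STAR 2.3.0e, FastQC 0.10.1, DESeq2 1.8.2, featureCounts 1.4.6-p1, bcl2fastq and CASAVA 1.8.2, with the build mm10 and no statement of their roles. Annotation release, strand setting and treatment of multi-mapped reads were not given in the sources used here. Totals per library were 19602718 to 33072896. Identifiers of 36602 of 38355 genes matched GENCODE M21 (GRCm38), and the others held 0.397% of the counts. The 5 summary entries of each file were 0. No pair of libraries held identical counts.

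With edgeR 4.0.16 in R 4.3.3, 16236 genes passed filterByExpr, scaling used the trimmed mean of M-values (TMM), and all 18 libraries entered 1 quasi-likelihood fit with a mean for each genotype. SE was taken from the fold change and its F statistic. The p-values were adjusted by Benjamini-Hochberg over all tested genes. CPM (counts per library size, scaled to a fixed total) was computed here from the deposited counts. Log2 CPM used a prior count of 2, and levels per kb used the merged exon length. Within-library differences were compared by exact permutation of libraries. The steps were tested on simulated data. Alternatives were DESeq2 1.42.0, other scaling, no filter, covariates, a replicate block, fits of 2 genotypes and leaving out libraries.

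Besides Eomes and Tbr1, the rule for names gave every tested T-box gene, up to 4 members of each other list with the lowest adjusted p in the double KO against WT, and the 5 nearest genes to each. The genes, lists and rule were chosen with earlier results of these data known. Exon sequences came from GENCODE M21 transcripts and promoter windows from RefSeq.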

Additional observations from a re-analysis of the deposited data

Results flagged for a closer look

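Double KO replicate 5 was the highest library of its genotype for both genes, by a gap that is large against the range of the other 4. It held 62.3 CPM of Eomes, where the other double KO libraries held 42.4 to 47.1 CPM, and 196 CPM of Tbr1, where the others held 97.4 to 125 CPM. Of 16 groups examined in this way, 2 met the limit, and chance alone marks about 1 in 20. The same library had the lowest mesenchyme score, 0.68, and the steepest slope of log2 CPM on log2 gene length, 0.43. Their part in its Eomes and Tbr1 levels was not tested. Without it, the fall of Tbr1 in the double KO was called against Dmrt5 KO as well (log2 -0.99, adjusted p = 0.00409).

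The effect of losing Dmrt3 on Eomes differed with the state of Dmrt5. Loss of Dmrt3 went with a log2 fold change of -1.75 where Dmrt5 was also missing (double KO against Dmrt5 KO) and of 0.12 where it was present (Dmrt3 KO against WT). The difference between these values, the interaction, was -1.87 (edgeR quasi-likelihood test, adjusted p = 0.00107). The corresponding values for loss of Dmrt5 were -2.16 (double KO against Dmrt3 KO) and -0.28 (Dmrt5 KO against WT).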

How the results depend on the processing

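For Eomes, every alternative kept the side of the threshold in all 7 comparisons, and kept the direction in all but Dmrt3 KO against WT, an uncalled difference that ranged from -0.0080 (without WT replicate 2) to 0.25 when libraries were left out in turn. Its log2 fold change in the double KO against WT ranged from -2.22 to -1.90, and the interaction from -2.17 to -1.74. For Tbr1, the double KO against Dmrt5 KO was called with the mesenchyme score (-1.03), the pan-neuronal score (-0.83) or the length slope (-0.93) as a covariate, with DESeq2 (-0.78), and without WT replicate 4 and double KO replicate 5, a choice made after seeing the data (-0.97). When libraries were left out in turn it ranged from -0.99 to -0.69. The Tbr1 interaction was called with the length slope (-1.12) and without those 2 libraries (-1.05). Tbr1 in the double KO against WT was not called when only the 2 genotypes entered the fit (-0.93). That fit has fewer samples to estimate the spread. It also leaves out the single KO genotypes, in which Tbr1 varied less. The SD of Tbr1 was 31.6% of the mean in the double KO and 22.5% in WT. In Dmrt5 KO and Dmrt3 KO it was 9.16% and 11.2%. The part of either in the lost call was not tested. Tbr1 in Dmrt3 KO against WT, never called, changed sign with the length slope (0.19), without those 2 libraries (0.084), and over libraries left out in turn (-0.17 to 0.067). In Dmrt5 KO against WT it changed sign with the length slope (0.012). Beyond these the cause was not tested.

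Replicate numbers are shared between genotypes. The deviations of same-numbered libraries correlated from -0.36 to 0.70 (median 0.24, 15 of 24 pairs over 0.1). Pairs of different number had a median of -0.14, and 4 of 18 libraries correlated best with their own number. The labels state no pairing, so the numbers are not taken to pair the samples. What same-numbered libraries may share was not tested. With a replicate block, Eomes and Tbr1 kept every call of the edgeR fit, and genes called in Dmrt5 KO against WT went to 380, beside 167 without it. Paired sign-flip tests of within-library values, which cannot pass with 3 to 5 pairs, gave for Tbr1 minus Eomes 0.98, 1.22 and 0.94 in the double KO against WT, Dmrt3 KO and Dmrt5 KO. For Tbr1 minus the pan-neuronal mean they gave -1.58, -1.24 and -0.86 in the same comparisons, -0.70 in Dmrt5 KO against WT and -0.37 in Dmrt5 KO against Dmrt3 KO. With libraries left out in turn, the pan-neuronal differences lost their call in Dmrt5 KO against Dmrt3 KO (-0.43 to -0.31), where the cause was not tested. They also lost it in Dmrt5 KO against WT (-0.66 to -0.52) and in the double KO against Dmrt5 KO (-0.98 to -0.78), where the libraries stayed fully apart. Tbr1 minus Eomes in Dmrt5 KO against Dmrt3 KO (0.20 to 0.38) was called without Dmrt5 KO replicate 4. Genes called over all alternatives numbered 368 to 2308 in the double KO against WT (1012 as reported), 54 to 477 in Dmrt5 KO against WT (167), 2 to 57 in Dmrt3 KO against WT (2), 264 to 1437 in the double KO against Dmrt3 KO (600), 21 to 122 against Dmrt5 KO (54), 12 to 140 in Dmrt5 KO against Dmrt3 KO (37) and 15 to 127 in the interaction (23). By Pearson r in place of the RMS difference, 3 of the 5 genes nearest to Eomes and 2 of those nearest to Tbr1 were the same. Eomes had at least 953 counts and Tbr1 at least 2241 in every library.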
